A study of Mus musculus with 3 samples.

Results

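The Kruppel-like factors (KLFs) examined here are 10 mouse genes, Klf2, Klf3, Klf4, Klf6, Klf7, Klf9, Klf10, Klf11, Klf12 and Klf13, whose transcripts were read on Affymetrix arrays of memory phenotype CD4 T cells. The members are all probe sets that the platform annotation assigns to 1 of these symbols and no other gene, which gave 36 of the 45037 probe sets that are no controls, and 10 of 18193 named genes. The cells, antigen-experienced helper T cells, had been sorted from the spleens of BALB/c mice to a purity above 99%, per the labels. The mice had been kept for 10 weeks on a normal diet (ND; 1 array) or on a high fat diet with 60 kcal% fat (HFD; 2 arrays, HFD 1 and HFD 2). The labels name no age, genetic change or other agent in either group, and they do not tell whether an array holds 1 mouse or a pool. The spread between HFD 1 and HFD 2, on which every p-value below rests, may therefore be a technical one, and the lone ND array has no spread of its own. The class II gene H2-Ea, silent in some mouse strains but not in BALB/c, read 11.49 in ND and 536.3 and 601.7 in HFD (chosen after its values were seen). Whether the ND cells shared the labelled strain was not tested, and strain, handling or array batch of that 1 sample cannot be told apart from diet.

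KLFs are transcription factors with 3 zinc fingers at the carboxyl end, which bind CACCC and GC-rich boxes, and the parts outside the fingers differ and recruit activators or repressors. KLF2 is known for keeping naive T cells quiescent and for their exit from lymphoid organs through the sphingosine 1-phosphate receptor. T cell receptor signalling lowers KLF2 and KLF4, and the forkhead factor FOXO1 raises KLF2. KLF3 and KLF12 are known to bind the corepressor CtBP, and KLF9, KLF10, KLF11 and KLF13 to bind the corepressor Sin3.

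The sequences before the start sites are shown because KLFs bind such boxes in many promoters, those of other KLF genes included, and because most members moved in 1 direction. RefSeq promoters (build GRCm38.p6) matched 9 of the 10 members, and the 250 bases before the start were searched on both strands for CACCC, which reads GGGTG on the opposite strand, and for the GC box GGCGGG, which reads CCCGCC there. Matches to GTAAACA (on the opposite strand TGTTTAC), the core bound by FOXO factors, and to the MEF2 consensus were added after the sequences had been seen. Capitals mark every match, written 5' to 3' in the direction of the gene.
Klf2 (chr8:72318812-72319061, + strand): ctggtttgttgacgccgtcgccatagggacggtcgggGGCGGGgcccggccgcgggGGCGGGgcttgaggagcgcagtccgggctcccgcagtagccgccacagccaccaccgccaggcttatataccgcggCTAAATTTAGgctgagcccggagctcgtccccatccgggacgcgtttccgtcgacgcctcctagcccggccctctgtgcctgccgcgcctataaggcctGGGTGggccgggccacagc
Klf3 (chr5:64803271-64803520, + strand): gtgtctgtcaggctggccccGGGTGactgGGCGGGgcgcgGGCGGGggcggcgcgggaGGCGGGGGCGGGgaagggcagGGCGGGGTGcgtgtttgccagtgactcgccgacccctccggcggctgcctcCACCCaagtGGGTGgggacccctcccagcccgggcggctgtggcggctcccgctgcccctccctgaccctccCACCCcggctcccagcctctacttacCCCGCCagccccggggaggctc
Klf4 (chr4:55532476-55532725, - strand): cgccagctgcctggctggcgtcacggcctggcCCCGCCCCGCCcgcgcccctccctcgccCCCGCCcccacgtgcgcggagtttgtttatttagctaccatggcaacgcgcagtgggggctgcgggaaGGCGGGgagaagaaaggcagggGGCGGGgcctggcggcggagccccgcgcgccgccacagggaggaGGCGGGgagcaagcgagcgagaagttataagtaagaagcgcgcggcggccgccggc
Klf9 (chr19:23140976-23141225, + strand): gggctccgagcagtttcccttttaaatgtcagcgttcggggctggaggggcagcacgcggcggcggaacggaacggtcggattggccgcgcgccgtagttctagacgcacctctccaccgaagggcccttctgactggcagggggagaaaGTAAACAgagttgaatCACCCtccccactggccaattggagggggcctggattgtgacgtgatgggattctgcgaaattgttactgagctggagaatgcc
Klf12 (chr14:100149797-100150046, - strand): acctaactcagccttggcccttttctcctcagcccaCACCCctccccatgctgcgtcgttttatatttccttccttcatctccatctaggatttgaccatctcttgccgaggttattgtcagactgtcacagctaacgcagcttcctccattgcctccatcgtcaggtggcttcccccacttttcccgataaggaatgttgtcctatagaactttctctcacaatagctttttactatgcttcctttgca
CACCC stood in 6 of the 9 member windows, against 52.0% of all 32851 promoter windows of this length, and GGCGGG in 6 of 9, against 32.5%. Klf3 held 5 CACCC and 6 GGCGGG matches, 1 of the first overlapping 1 of the second, and Klf4 held 6 GGCGGG matches and no CACCC. Klf2 was the 1 member window with a MEF2 match (2.9% of all windows), and Klf9 the 1 with GTAAACA (3.2%). The Klf12 window lies before 1 of several RefSeq starts of that gene, held 1 CACCC, and was 48.0% G and C, against 59.2 to 78.4% in the other 8 windows and a median of 52.4% over all windows. These matches describe letters and are no binding data.

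KLF transcripts were lower in the HFD cells. At the gene level, with each gene read by its brightest probe set, 8 of the 10 members fell and the other 2, Klf11 and Klf12, did not pass the test, while of all 10341 genes tested 29.2% fell, 20.5% rose and 49.6% were thus called in either direction. The median member lay at log2 -0.77 in HFD against ND, and the median of all genes at -0.15. Klf4 showed the greatest difference among the members, 3.89-fold lower in HFD, followed by Klf6 (2.04-fold), Klf9 (1.88-fold), Klf3 (1.87-fold), Klf2 (1.72-fold), Klf13 (1.68-fold), Klf10 (1.54-fold) and Klf7 (1.31-fold). In 9 of the 10 members ND read above both HFD arrays, which held for 54.7% of all genes. A call is an adjusted p under 0.05 in limma's moderated test, Benjamini-Hochberg adjusted over all genes, and a fold or log2 difference is taken on log2(intensity + 17.65), which understates changes of dim probe sets. HFD levels are given as mean ± SD of the 2 arrays, and an intensity of 1 probe set is not comparable with that of another.

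**Figure D1:**
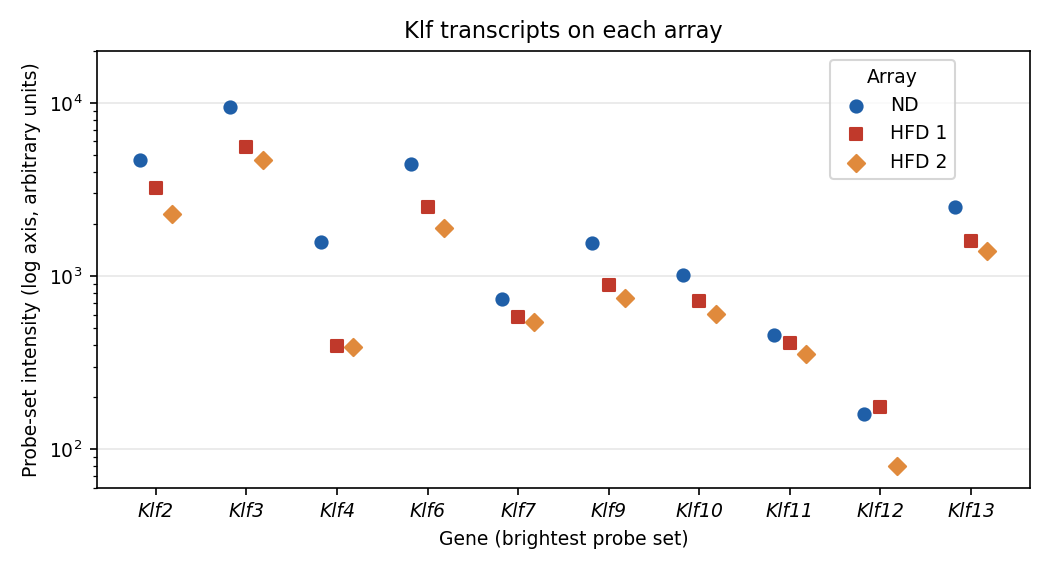
Intensity of the brightest probe set of each Klf member on the ND array (circles), HFD 1 (squares) and HFD 2 (diamonds), on a log axis in arbitrary units. ND lies above both HFD arrays for each gene but Klf12, where HFD 1 (175.4) exceeds ND (160.1).

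Klf2 and Klf4 are the members best known for restraining T cell division. Klf2 read 4668 in ND, 3223 in HFD 1 and 2270 in HFD 2. Both HFD arrays were lower, HFD 2 more so, and the HFD mean of 2746 ± 674 (SD, n = 2) lay at log2 -0.78 ± 0.16 SE (limma adjusted p = 0.00161). This call was lost when dim probe sets were kept in the fit (adjusted p = 0.0564) or when the variance was given no trend (adjusted p = 0.0657).

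Klf4, which restrains proliferation of T cells and is also a factor of monocytes, read 1581 in ND, 396.2 in HFD 1 and 391.3 in HFD 2 on its brighter probe set. The 2 HFD values were nearly the same, far under ND (log2 -1.96 ± 0.15 SE, limma adjusted p = 5.4e-07), and the difference ranked at percentile 0.135 of all genes. The other Klf4 probe set, designed from the same sequence, read 536.0, 253.8 and 233.9 and fell less, by 1.08 on the log2 scale (adjusted p = 8.9e-04 over all probe sets). On the brightest probe set of each gene, the difference was at least 2-fold on both HFD arrays for Klf4 alone among the members, against 2.60% of all genes. Dimmer probe sets of Klf6 (log2 -1.05 on HFD 1 and -1.19 on HFD 2) and Klf9 (-1.08 and -1.05, and -1.36 and -1.16) reached it too. The last of these passed the intensity filter only through its ND value. Of macrophage and monocyte markers, 4 of 6 tested (Csf1r, Cd68, Lyz2, Vcam1) fell, against 29.2% of all genes. The summed intensity of the 10 on the array went from 2369 in ND to 955.1 to 1144 in HFD. Adgre1 (limma adjusted p = 0.0576) and Cd5l (89.32 in ND, 47.97 and 91.26 in HFD) did not pass the test. Fcgr1, under the filter, read 34 in ND and 45.33 and 63.61 in HFD. Csf1r, the receptor that macrophages depend on, read 742.6 in ND and 223.6 and 295.9 in HFD, Itgam read 19.22, 37.26 and 2.456, and no marker was at 0. The part of such cells in the Klf4 difference was not tested. In a bulk sample, fewer cells of a type and less RNA per cell cannot be told apart.

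Klf6 and Klf7 are related activators, Klf6 an early gene induced by injury and growth signals and Klf7 best described in neurons. Klf6 read 4448 in ND, 2501 in HFD 1 and 1884 in HFD 2 (2192 ± 437, log2 -1.03 ± 0.15 SE, limma adjusted p = 1.2e-04). All 5 of its probe sets fell, by log2 differences from -0.91 to -1.22, and ND was above both HFD arrays on each. On 1 of them the HFD arrays were further apart, with 743.8 and 431.1 against 1349 in ND. The dimmest, of the _x_at class that may cross-hybridise, was the 1 of the 5 with HFD 2 (147.7) above HFD 1 (102.1).

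Klf7 had the highest adjusted p of the calls, and its probe sets differed. The brightest read 740.4, 580.1 and 543.2 in ND, HFD 1 and HFD 2 (log2 -0.39 ± 0.15 SE, limma adjusted p = 0.0494). That call ended under 6 of the 9 alternatives with a test and at the probe-set level, where the adjusted p was 0.0740. A second probe set read 578.2, 480.0 and 438.9, while on the dimmer 2 the HFD arrays lay on either side of ND (225.8 and 276.7 against 244.2, and 260.5 and 204.4 against 245.2). All 4 were designed from 1 expressed sequence.

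Of the CtBP-binding repressors, Klf3 fell and Klf12 did not pass the test; the difference between them was not tested. Klf3, a CACCC-box repressor that also shapes B cell development, read 9529 in ND, 5567 in HFD 1 and 4658 in HFD 2 (5112 ± 643, log2 -0.90 ± 0.11 SE, limma adjusted p = 3.5e-05). Of its 7 probe sets, 6 passed the intensity filter and 4 of these fell, by log2 differences from -0.75 to -1.0. The other two read lower on both HFD arrays without passing the test (log2 -0.44, adjusted p = 0.139, and log2 -0.50, adjusted p = 0.112).

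Klf12, first described as a repressor of the AP-2 alpha gene, read 160.1 in ND, 175.4 in HFD 1 and 80.28 in HFD 2. The HFD arrays lay on either side of ND, and the difference was log2 -0.37 with a 95% interval from -1.16 to 0.42 (limma adjusted p = 0.421). Of all genes, 0.6% had a gap between the HFD arrays at least as wide as that of Klf12 (log2 -0.98, HFD 2 minus HFD 1). This probe set is of the _s_at class, which can also detect other transcripts. Its other probe set past the filter had the reverse order, with 55.85 in HFD 1 and 103.6 in HFD 2 against 108.5 in ND, and 3 of its 5 were under the filter. The interval includes differences as large as that of Klf2, so for Klf12 a change of that size was not excluded.

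Of the 4 Sin3-binding members, Klf9, Klf10 and Klf13 fell and Klf11 did not pass the test, where 29.2% of all genes fell. Klf9, an immediate target of glucocorticoid and thyroid hormone receptors, read 1550 in ND, 893.1 in HFD 1 and 743.8 in HFD 2 (818.4 ± 106, log2 -0.91 ± 0.15 SE, limma adjusted p = 3.0e-04). Its 4 probe sets past the filter all fell (log2 -0.59 to -1.26). Of 3 dimmer ones, 1 read the other way, with 21.64 in ND and 33.03 and 39.95 in HFD, close to the offset of 17.65.

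Klf13, which drives late expression of the chemokine gene Ccl5 in T cells, read 2518 in ND, 1586 in HFD 1 and 1400 in HFD 2 (1493 ± 132, log2 -0.75 ± 0.13 SE, limma adjusted p = 4.4e-04). Its second probe set gave nearly the same difference, log2 -0.77, from 1803 in ND to 1073 and 1022. The third was near background on every array (11.94, 13.72 and 26.74).

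Klf10, a TGF-beta inducible gene that acts in regulatory T cells, read 1022 in ND, 715.8 in HFD 1 and 601.2 in HFD 2 on its only probe set (log2 -0.63 ± 0.16 SE, limma adjusted p = 0.00502). Its close relative Klf11, also TGF-beta inducible, read 459.3, 411.0 and 356.8. Both HFD values were below ND, but the difference of log2 -0.25, with a 95% interval from -0.63 to 0.13, missed the threshold (adjusted p = 0.254). The difference between Klf10 and Klf11 was not tested.

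Counted over probe sets, 28 of the 36 passed the filter and 19 of these fell, against 24.4% of all 22518 probe sets tested. The 19 include the dimmest tested probe set of Klf9, which passed the filter only through its ND value. The 9 without a call were those of Klf7, Klf11 and Klf12 and 2 of Klf3. ND was above both HFD arrays in 25 of the 28, against 54.9% of all probe sets past the filter. The 8 under the filter were 3 of Klf9, 3 of Klf12, 1 of Klf3 and 1 of Klf13, and they were not tested.

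**Figure D2:**
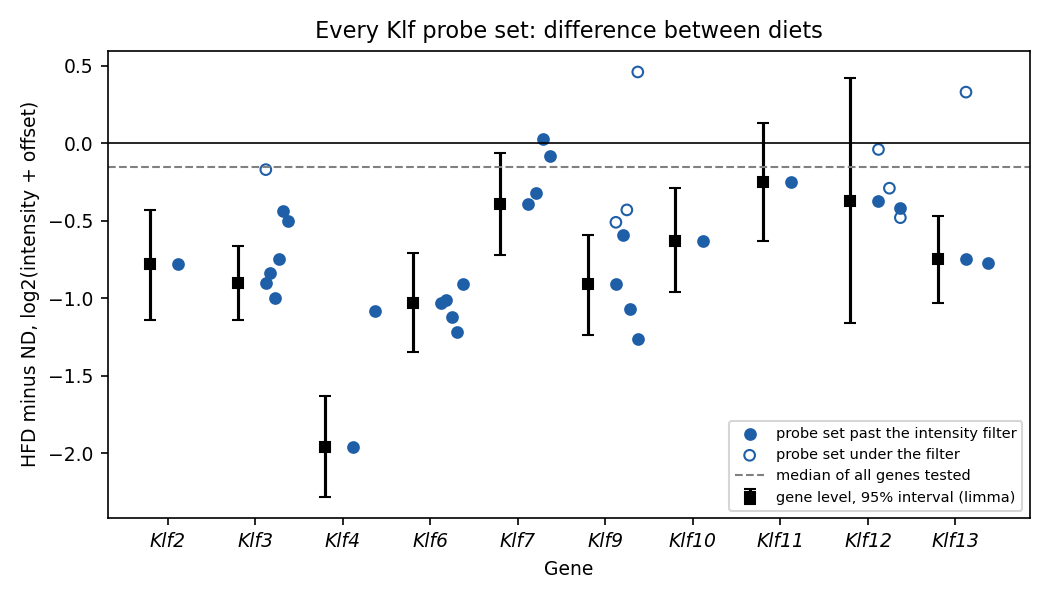
HFD minus ND on the log2(intensity + 17.65) scale for each Klf member. Squares with bars are the gene-level difference and its 95% interval (limma), filled circles the probe sets past the intensity filter, open circles those under it, and the dashed line the median of all genes (-0.15). The brighter Klf4 probe set lies lowest at -1.96, and the other Klf4 probe set lies at -1.08, above some of Klf6 and Klf9. Among the filled circles, those of Klf7, Klf11 and Klf12 lie nearest 0.

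The HFD arrays were not equal for these genes. On the brightest probe set of each gene, all 10 members read lower in HFD 2 than in HFD 1, by a median log2 of -0.25, while 49.4% of all genes did and their median gap was 0 (median absolute gap 0.126). Over the members' probe sets past the filter it held for 22 of 28, against 53.0% of all probe sets. The other 3 tested probe sets of Klf9 (0.15, 0.03 and 0.20) and the second of Klf12 (0.72) read higher in HFD 2. So did the dimmest of Klf6 (0.46) and a dimmer one of Klf7 (0.27). On the brightest probe sets the gap was -0.50 for Klf2, -0.41 for Klf6, -0.26 for Klf3 and Klf9 and -0.02 for Klf4. With HFD 2 alone set against ND on the brightest probe sets, 5 members (Klf2, Klf3, Klf4, Klf6 and Klf9) were at least 2-fold lower, against 6.11% of all genes. With HFD 1 alone it was 1 (Klf4), against 4.25%. Over all genes the gap between diets was wider, at a median absolute log2 of 0.394 for HFD 1 and 0.452 for HFD 2, each against ND. The shares of 49.4% and 53.0% cover genes or probe sets that rose as well as those that fell. How common a lower HFD 2 was among those that fell was not counted. Of genes called lower outside the members, Foxo3 and Sp4 were also lowest in HFD 2, and Wwp1 and Ep300 in HFD 1.

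**Figure D3:**
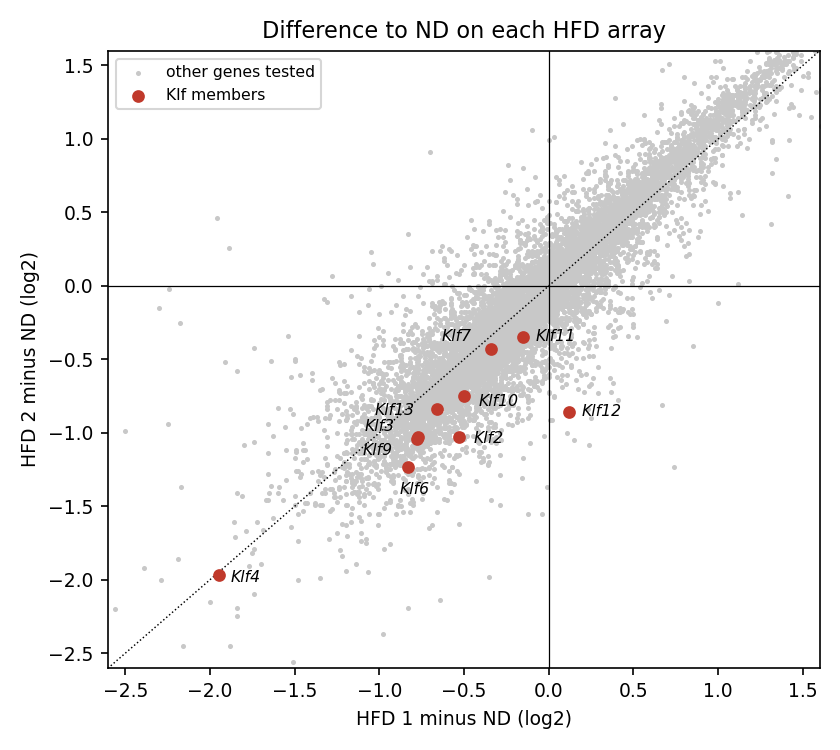
Log2 difference to ND on HFD 1 (x axis) and HFD 2 (y axis), with Klf members in red, other genes in grey and equal differences on the dotted line; genes beyond the plotted window are not drawn. The members lie below the dotted line, Klf4 almost on it at -1.95 and -1.97 and Klf12 farthest from it at 0.12 and -0.86.

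Factors that raise KLF2 and KLF4 or remove their proteins were lower in part. Of 13 measured upstream and degradation genes, 7 fell and the other 6 did not pass the test (median log2 -0.57). Among all genes 29.2% fell, and their median was -0.15. The 3 FOXO genes fell: Foxo3 read 2522 in ND and 1192 and 980.1 in HFD (log2 -1.21 ± 0.14 SE), Foxo1 3259 and 1806 and 1664 (log2 -0.90 ± 0.12 SE), and Foxo4 282.5 and 169.7 and 163.3 (log2 -0.70 ± 0.23 SE, limma adjusted p = 0.0207). The Foxo4 call was lost with no filter (adjusted p = 0.116), under quantile normalization (adjusted p = 0.0777) and under centring of the arrays (adjusted p = 0.0602). Mef2a and Mef2d, effectors of the ERK5 pathway that induces KLF2 and KLF4, were also called lower (log2 -0.61 and -0.77), whereas the ERK5 gene Mapk7 read 205.5, 191.6 and 189.6. Wwp1 and Smurf1, ubiquitin ligases for KLF2, were called lower at log2 -0.57 and -0.80, and Fbxw7, another one, read 1216, 1206 and 1289. The call of Mef2a was lost with no filter (adjusted p = 0.0779) and with no variance trend (0.0790), that of Smurf1 with no filter (0.107) and under quantile normalization (0.0521), and that of Wwp1 with no filter (0.0595). With no filter 3 of the 13 genes were called lower, and with quantile normalization 5.

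Of 9 measured genes described as controlled by KLF2 in T cells, 6 fell and 2 rose (median log2 -0.80). The shares over all genes were 29.2% and 20.5%, with a median of -0.15. S1pr1, the receptor for exit from lymphoid tissue and a direct KLF2 target, read 2077 in ND, 1262 in HFD 1 and 841.8 in HFD 2 (log2 -1.0 ± 0.19 SE, limma adjusted p = 8.8e-04). The integrin gene Itgb7 read 4894, 2684 and 2176 (log2 -1.01 ± 0.13 SE). On both genes HFD 2 was the lowest array, as on Klf2 and on every other gene of the list that fell, Cxcr3 and Il4 included. Foxo3 and Mef2d, outside this list, had the same order, and Wwp1 and Smurf1, also called lower, the reverse. How common the order was among all genes that fell was not counted. Ccr7, the lymph node homing receptor, rose from 1396 to 6328 and 7136 (log2 2.25 ± 0.11 SE). Cd69, which opposes S1PR1 at the cell surface, rose too (5668 to 7392 and 8664, log2 0.50 ± 0.11 SE). Genes that rise when KLF2 is lost were also lower: Cxcr3 fell by 0.80 and Il4 by 1.31 on the log2 scale. The list thus holds targets that KLF2 raises and targets it lowers, and its count has no single direction to be read against. The Cd69 call ended without a variance trend (adjusted p = 0.0693).

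Of 13 measured genes described as targets of other members, 4 fell, 3 rose and 6 did not pass the test (median log2 -0.21), shares near the 29.2% and 20.5% of all genes, so the count sets this list apart in neither direction. The cell cycle inhibitors linked to KLF4 and KLF6 were opposed, with Cdkn1b going from 4843 to 2911 and 2708 (log2 -0.78 ± 0.11 SE) and Cdkn1a from 106.0 to 258.2 and 289.3 (log2 1.23 ± 0.23 SE, limma adjusted p = 7.2e-04). Myc, repressed by KLF11 in other cells, rose from 776.9 to 4629 and 5008 (log2 2.60 ± 0.12 SE), and Ccnd1 fell from 594.5 to 270.7 and 290.4 (log2 -1.04 ± 0.18 SE). Ccl5, the KLF13 target, read 12420, 12170 and 9781 (log2 -0.19, adjusted p = 0.183; called lower only with quantile normalization among the scaling and filter settings compared, adjusted p = 0.0121). Lgals3, a gene repressed by KLF3, read 695.3, 719.3 and 557.7 (adjusted p = 0.552).

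The SP factors, relatives that share the zinc fingers and bind the same GC boxes, fell in 4 of 5 measured genes (median log2 -0.41). Of all genes 29.2% fell, with a median of -0.15. Sp4 read 1963 in ND and 1104 and 872.9 in HFD (log2 -0.99 ± 0.15 SE, limma adjusted p = 2.1e-04), and Sp1 and Sp3 fell less (log2 -0.41 and -0.39), calls that ended when arrays were centred (adjusted p = 0.0856 and 0.118) and with no variance trend (0.0880 and 0.0791), and for Sp1 also with no filter (0.0535). Sp6 was called at log2 -1.20 from 193.7 to 96.36 and 57.07, but not with no filter (adjusted p = 0.106). Among the KLF genes outside the 10 members, Klf16 alone passed the filter and read 579.4, 736.8 and 677.0 (log2 0.28, adjusted p = 0.145; called higher under quantile normalization, adjusted p = 0.0368, and under centring, adjusted p = 0.0209). Klf1, the erythroid member, read 47.52 in ND and 4.880 and 4.689 in HFD, and Klf5, Klf14, Klf15 and Klf17 were under the filter too. Klf8 was not analysed here.

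Of 14 genes for cofactors of KLFs, 2 rose, 4 fell and 8 did not pass the test (median log2 -0.04). Over all genes 20.5% rose and 29.2% fell, so the count sets this list apart in neither direction. The rises were in the histone deacetylase complex of Sin3, Hdac2 (2758 to 4265 and 4831, log2 0.72 ± 0.11 SE) and Sap30 (708.9 to 1102 and 1279, log2 0.73 ± 0.15 SE), and the falls in acetyltransferases and a corepressor, Kat2b (3331 to 2103 and 2018, log2 -0.69 ± 0.12 SE), Ep300, Crebbp and Rcor1. The bridging corepressors themselves did not pass the test: Ctbp1 read 5382, 5575 and 5580 (log2 0.05, 95% interval -0.16 to 0.26) and Sin3a 1555, 1526 and 1367 (log2 -0.11). With arrays centred 3 of the 14 were called higher and 2 lower, and the median became 0.11. The Crebbp and Rcor1 calls ended under centring (adjusted p = 0.128 and 0.236) and with no variance trend (0.0732 and 0.0952), and that of Rcor1 also with no filter (0.0587).

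Glucocorticoid-induced genes, the class to which Klf9 belongs, were measured beside it, in a list that also counts the receptor gene Nr3c1. Of 10, 7 fell and 3 did not pass the test (median log2 -0.56), where 29.2% of all genes fell (median -0.15). Dusp1, a phosphatase that shuts off MAP kinases, read 14950 in ND and 6226 and 5489 in HFD (log2 -1.35 ± 0.10 SE, limma adjusted p = 3.4e-07), the receptor gene Nr3c1 3236 and 1677 and 1756 (log2 -0.91 ± 0.12 SE), and Zbtb16 349.3 and 153.8 and 168.0 (log2 -1.04 ± 0.22 SE). With arrays centred 5 were called lower, as the calls of Fkbp5 and Ddit4 ended (limma adjusted p = 0.128 and 0.182). Both also ended with no variance trend (0.0902 and 0.0901), and that of Fkbp5 with no filter (0.0597).

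**Figure D4:**
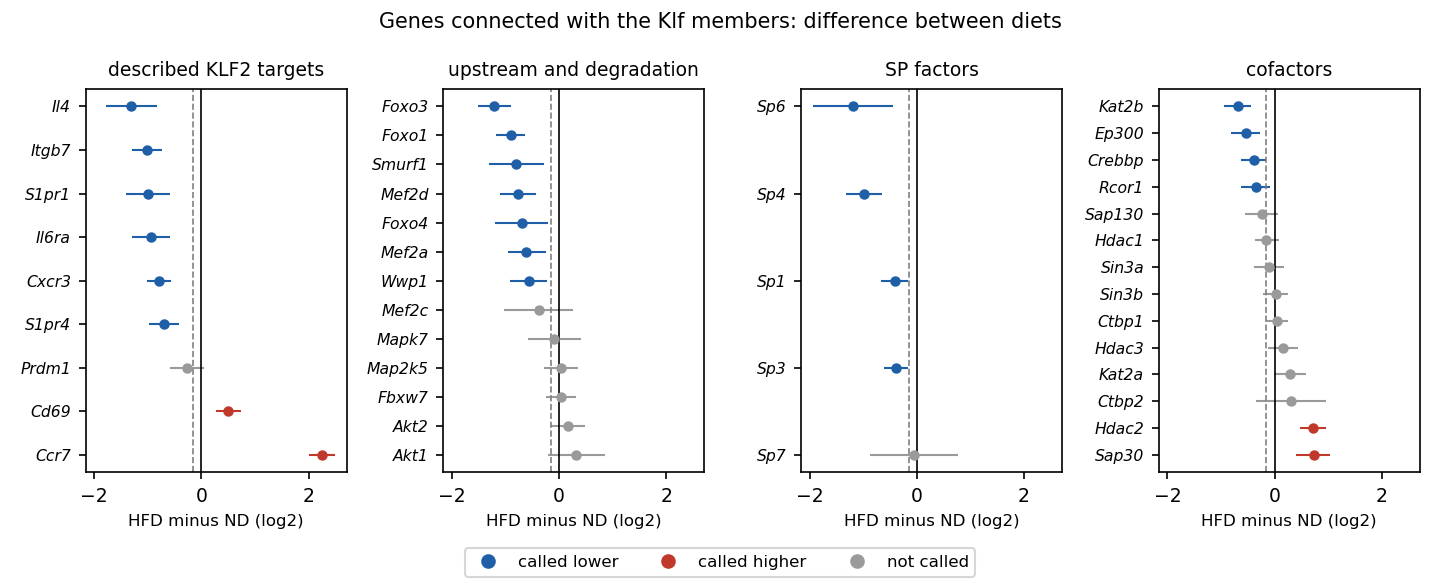
HFD minus ND (log2, with 95% interval from limma) of genes measured beside the Klf members, in 4 panels; blue points were called lower, red points higher and grey points not called, and the dashed line is the median of all genes (-0.15). Ccr7 (2.25) and Cd69 (0.50) stand apart from the KLF2 targets that fell, and the cofactors spread around 0.

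The arrays carried the transcripts of the labelled cell type. Of 8 CD4 T cell markers measured, 6 were called lower in HFD, and the sum of the 8 was 89310 in ND and 72220 to 74070 in HFD. Cd3e (4167, 2558 and 2426), Cd4 (910.8, 608.6 and 377.0) and Cd44 (9761, 5623 and 5700) fell most. Cd3d, Cd3g and Cd2 fell less (log2 -0.22, -0.40 and -0.38). Cd5 (12990, 13960 and 13510) and Cd28 (10690, 9962 and 9808) did not pass the test. With arrays centred 3 of the 8 were called lower, with no variance trend 2 and with no filter 4, and the Cd4 call was lost under the last 2 of these (adjusted p = 0.0780 and 0.0903). Markers of CD8 T cells, which a CD4 sort should remove, summed to 449.1 in ND and 581.2 and 715.4 in HFD. Cd8a rose from 99.0 to 177.1 and 230.0 (log2 0.91, adjusted p = 0.0122; lost with no filter, 0.103), and Cd8b1 read 350.1, 404.1 and 485.4 (adjusted p = 0.153). Other cell types' markers also differed between diets. Each marker count in this paragraph stands beside 29.2% of all genes that fell and 20.5% that rose. Dendritic cell markers fell in 5 of 7 tested genes, or 3 with no filter (summed intensity 2340 in ND, 866.4 to 1035 in HFD, 8 genes on the array). Endothelial markers fell in 1 of 4, Pecam1 (sum 752.0 against 549.8 to 553.7, 6 genes). That call was lost with quantile normalization, with no filter and under centring. Egfl7, also tested, read 64.72 in ND and 126.2 and 106 in HFD (limma adjusted p = 0.0971). It was called higher under centring (0.0437), where 0 fell, and with no variance trend (0.0332), where 2 fell. The B cell sum was 1412 in ND and 3120 to 3306 in HFD (8 genes; 2 of 4 tested rose and 1 fell). The rises were Ms4a1 (56.78 to 1612 and 1837) and Fcer2a (31.60 to 523.7 and 644.2), both past the filter only through HFD. Cd22 fell from 939.3 to 604.8 and 504.4, and Cd79b read 219.3, 189.6 and 168.1. The sum of neutrophil markers was 100.1 in ND and 503.9 to 620.8 in HFD (5 genes). Both tested genes rose, S100a8 (40.94 to 247.1 and 362.4) and S100a9 (5.851 to 183.1 and 131.3). Both passed the filter only through HFD, so their rise is no independent support. Camp, Ltf and Mpo were under the filter, with Mpo at 18.91, 21.91 and 21.86. The erythroid sum was 2258 and 8983 to 10120 (4 genes), most of it Tfrc (2121 in ND, 8867 and 9995 in HFD), which dividing cells also express. Neither of 2 tested NK cell markers passed the test, with Prf1 at 310.1, 268.2 and 303.2 and Klre1 at 141.6, 158.6 and 163.2. No marker read exactly 0, and the part of these cells in the KLF differences was not tested.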

How the data were processed

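The authors deposited 1 linear intensity per probe set and array, and GCOS is named per the submitters' processing notes. Which algorithm, version and background correction it ran is not given in the sources used here. Every array has a mean of 500 once the top and bottom 2% of its values are trimmed, with medians of 78.5 (ND), 70.0 (HFD 1) and 67.6 (HFD 2). Control probe sets (64) were removed. Symbols came from the platform annotation, 34741 of 34945 probe sets with 1 symbol matching RefSeq (GRCm38.p6) by Entrez identifier.

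The analysis used log2(intensity + 17.65), with the 25th percentile of all values as the offset. Probe sets with a mean above 71.4, the median, were kept, and the brightest stood for a gene. Limma 3.58.1 under R 4.3.3 compared HFD with ND (lmFit, then eBayes with a variance trend, two-sided) over all genes and, separately, all probe sets, with Benjamini-Hochberg adjustment. The residual has 1 degree of freedom, moderated with 11.69 prior ones. The number of arrays limits the precision, and detection calls were not used here. The model was tested on simulated data.

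Members, gene lists and tests were chosen with earlier results of these data known. Named were all members, up to 3 called genes of each list with the largest smaller difference over both HFD arrays, and CD4 T cell markers. Other genes of the lists were named after their values were seen. Centring arrays on their median moved the calls from 2117 higher and 3015 lower to 2757 and 2097. Figures were drawn with matplotlib 3.10.9.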

Additional observations from a re-analysis of the deposited data

How the results depend on the processing

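Alternatives covered quantile normalization, centring, the offset (the median of all values, or 1), the filter (none, or the 75th percentile), averaged probe sets, the variance model and leaving out either HFD array. Of 215 results under an alternative, 193 were scored as unchanged. For genes this meant keeping the side of the threshold or staying within the spread. A change of sign in a gene without a call was not scored as a change. For counts it meant a value of similar size, so that 3015 and, with centring, 2097 genes called lower were scored alike. Under the 9 alternatives with a test, 6 to 8 members were called lower. Klf3, Klf4, Klf6, Klf9, Klf10 and Klf13 were called in each of the 9. Klf2 kept log2 -0.78 but lost its call with no filter (adjusted p = 0.0564) and, at the same -0.78, with no variance trend (adjusted p = 0.0657). Klf7 lost its call with quantile normalization (log2 -0.27, adjusted p = 0.156), centring (-0.23, 0.249), an offset of 1 (-0.40, 0.0507), no filter (-0.39, 0.117), averaged probe sets (-0.19, 0.312) and no variance trend (-0.39, 0.0804). Member probe sets called lower numbered 19, and 11 with no filter. Over all genes, 3015 were called lower, and 1922 with no filter. Genes at least 2-fold lower numbered 269, and 125 with centring, 137 with the offset at the median, 513 with no filter and 114 with the stricter filter. Leaving out an HFD array leaves 1 against 1 and no test. The 2-fold rule then gave 439 to 632 genes and 1 to 5 members. The median of all genes, -0.15, became -0.08 with quantile normalization, 0 with centring, -0.13 with the offset at the median, -0.10 with no filter and -0.09 with the stricter filter, while the median member stayed between -0.60 and -0.94. Klf12 was 0.12 on HFD 1 and -0.86 on HFD 2 alone, and Klf11 and Klf12 were left out by the stricter filter. The probe-set counts have no value with averaged probe sets. No paired analysis was possible because the groups share fewer than 2 replicate numbers. Detection calls were not used, so for dim probe sets, such as the 8 member probe sets under the filter, signal was not told from background.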
